A study of Homo sapiens with 33 samples.

Results

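The metallothioneins MT2A, MT1E, MT1F, MT1G, MT1M and MT1X, the zinc-sensing transcription factor MTF1 and the zinc exporter SLC30A1 were followed in HEK293T cells expressing DNA base editors. These 8 genes were chosen by symbol, with earlier results of these data known, and all 8 have a row among the 26475 genes of the count table. HEK293T is a line derived from human embryonic kidney cells that carries the SV40 large T antigen. The cells received an editor or control plasmid that also encodes EGFP, linked by a P2A peptide in the editor constructs, together with a guide RNA plasmid. GFP-positive cells were sorted 36 to 40 h after transfection and total RNA was sequenced, with 3 libraries in each of 11 groups. One group expressed GFP. Its labels name no guide, and its count columns read None in the place of the guide. The other 10 groups expressed nCas9 (the Cas9 nickase without a deaminase), ABEmax or miniABEmax-V82G (adenine base editors), Target-AID (a cytosine base editor) or SpACE (the dual adenine and cytosine editor of the study), each with a guide named HEKsite2 or RNF2. The labels present nCas9 and GFP as negative controls. The 3 libraries of a group are labelled as replicates but not as separate cultures, so the p-values reflect no more than how these libraries spread.

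Metallothioneins are small, cysteine-rich proteins that bind zinc and copper, and they buffer free zinc inside the cell. When zinc rises, MTF1 binds metal response elements in the promoters of the metallothionein genes and of SLC30A1, which encodes the plasma membrane transporter ZnT1 that moves zinc out of the cytosol. Glucocorticoids, oxidative stress and heavy metals are also known to raise metallothionein transcripts.

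The promoters show which members carry the motif of this pathway. They are RefSeq sequences on GRCh38.p14, 250 bases up to the annotated start, and 4 of the 8 members had an entry: MT2A (chr16:56608334-56608583, plus strand), MT1X (chr16:56682220-56682469, plus strand), SLC30A1 (chr1:211579162-211579411, minus strand) and MTF1 (chr1:37859593-37859842, minus strand). MT1E, MT1F, MT1G and MT1M are named only. Capitals mark the metal response element core, TGCACNC or TGCGCNC, found on either strand, and each sequence reads 5′ to 3′ towards the gene.
MT2A: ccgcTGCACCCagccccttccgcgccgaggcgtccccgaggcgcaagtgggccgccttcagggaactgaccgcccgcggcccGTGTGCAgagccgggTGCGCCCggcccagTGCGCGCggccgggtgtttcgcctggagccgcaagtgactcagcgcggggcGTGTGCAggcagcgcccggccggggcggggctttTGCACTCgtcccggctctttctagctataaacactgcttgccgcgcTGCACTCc
MT1X: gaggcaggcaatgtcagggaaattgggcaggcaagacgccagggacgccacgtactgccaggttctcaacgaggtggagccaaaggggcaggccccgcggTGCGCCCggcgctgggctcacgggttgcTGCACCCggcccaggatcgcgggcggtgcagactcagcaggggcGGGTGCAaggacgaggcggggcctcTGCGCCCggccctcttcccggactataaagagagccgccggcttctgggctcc
SLC30A1: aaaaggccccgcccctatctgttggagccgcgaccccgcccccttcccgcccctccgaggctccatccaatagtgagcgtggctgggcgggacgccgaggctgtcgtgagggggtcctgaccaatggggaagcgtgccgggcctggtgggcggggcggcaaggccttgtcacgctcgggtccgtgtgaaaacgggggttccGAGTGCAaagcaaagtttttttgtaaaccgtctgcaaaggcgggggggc
MTF1: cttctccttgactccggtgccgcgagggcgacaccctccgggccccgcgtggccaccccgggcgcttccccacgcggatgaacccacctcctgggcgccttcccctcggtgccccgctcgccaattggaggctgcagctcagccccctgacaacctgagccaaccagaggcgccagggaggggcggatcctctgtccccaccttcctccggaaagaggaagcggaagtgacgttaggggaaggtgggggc
MT2A held 7 matches, and 0.0313% of the 35116 promoters of this length held at least as many. MT1X held 4 matches, a number reached by 0.37% of promoters. A single match lay in the SLC30A1 window, 49 to 43 bases before the start, and 24.8% of all promoters held at least 1. MTF1 held 0 matches. No match overlapped another. An antioxidant response core, TGACNNNGC, was found once each in MT2A, MT1X and SLC30A1, against 10.9% of all promoters with a match, and a heat shock core, GAANNTTC, in 0 of the 4, against 5.78%. A match is a description of these letters and not a measured binding site.

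**Figure D1:**
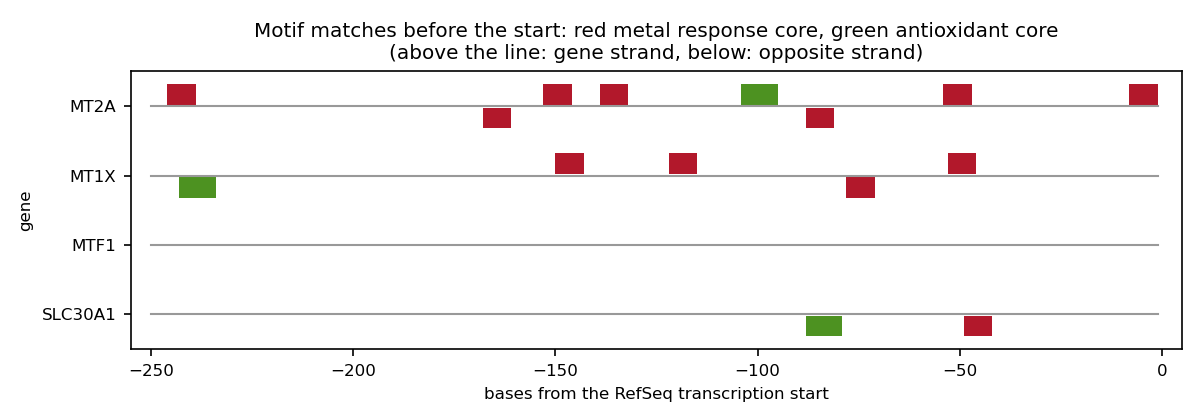
Positions of the motif matches in the 250 bases before the RefSeq start of MT2A, MT1X, SLC30A1 and MTF1, with distance from the start in bases on the horizontal axis (red metal response core, green antioxidant core; gene strand above each line, opposite strand below). The 7 metal response element matches of MT2A run from 246 bases before the start to within 10 bases of it, and MTF1 has none.

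The library totals ran from 6790209 to 11200406 counts. Of the 5 HEK293 marker genes examined, LIN28B had a median of 145 CPM (TMM-scaled counts relative to the library total), VIM 341, ZIC2 37.7, NEFM 22.1 and GATA3 8.74. Markers of other tissues were near 0, with 25 counts of ALB, 7 of PTPRC, 3 of KRT5 and 64 of CD34 over all 33 libraries. The beta-globin gene HBB and the liver gene APOB stood apart in Target-AID. HBB had 130144 and 126316 counts in the Target-AID groups and 0 to 22 in each other group, and APOB had 31 and 32 counts there and 0 to 2 in each other group. Their part in the Target-AID results below was not tested.

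The expressed metallothioneins were 3 of the 6. Per length of exon, MT1X had the highest median level of the members at 7.58 CPM per kb, followed by MT2A at 5.79, SLC30A1 at 4.48, MTF1 at 3.22 and MT1F at 1.035. MT1E was counted 2 times in all, in 1 SpACE library with each guide. MT1G had 4 counts, each in a different library. MT1M had 0 counts, which allows up to 0.0105 CPM over the 33 libraries (3 counts, counting error only). These 3 genes did not pass the filter on low counts and were not tested, so 5 of the 8 members were tested. The metallothionein genes lie together on chromosome 16 of GRCh38 (GENCODE 29), from MT2A at chr16:56608199-56609497 to MT1X at chr16:56682424-56684196, and MT1E, MT1M, MT1F and MT1G lie between them. MTF1 is at chr1:37809567-37859620 and SLC30A1 at chr1:211571568-211578742, both on the minus strand.

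Metallothionein transcripts resemble one another, so reads can be split or lost between them. Of the 50-base stretches in MT1X transcripts, 43.6% also occur in a transcript of another gene, led by AC026461.1, which overlaps MT1X on the same strand. The share was 4.24% for MT2A, 3.27% for MT1F, 16.5% for MT1G, 9.87% for MT1M and 7.1% for MT1E, and it was 0.644% for MTF1 and 0% for SLC30A1. Of the tested members MT1X shared the largest part of its sequence, and how reads common to several genes were counted is not known. For MTF1 a processed pseudogene, AL929472.4, lies within the gene on the opposite strand.

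Asked whether its level differed among the 11 groups at all, 3 of the 5 tested members passed, MT2A, MTF1 and SLC30A1, against 73.9% of all 14613 genes tested. Here and below a gene is called at a Benjamini-Hochberg adjusted p under 0.05 in edgeR's quasi-likelihood test. The adjusted p was 7.41e-05 for MT2A, 1.64e-05 for MTF1 and 0.000485 for SLC30A1, and 0.110 for MT1F and 0.321 for MT1X. A share of 3 in 5 is near that background.

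**Figure D2:**
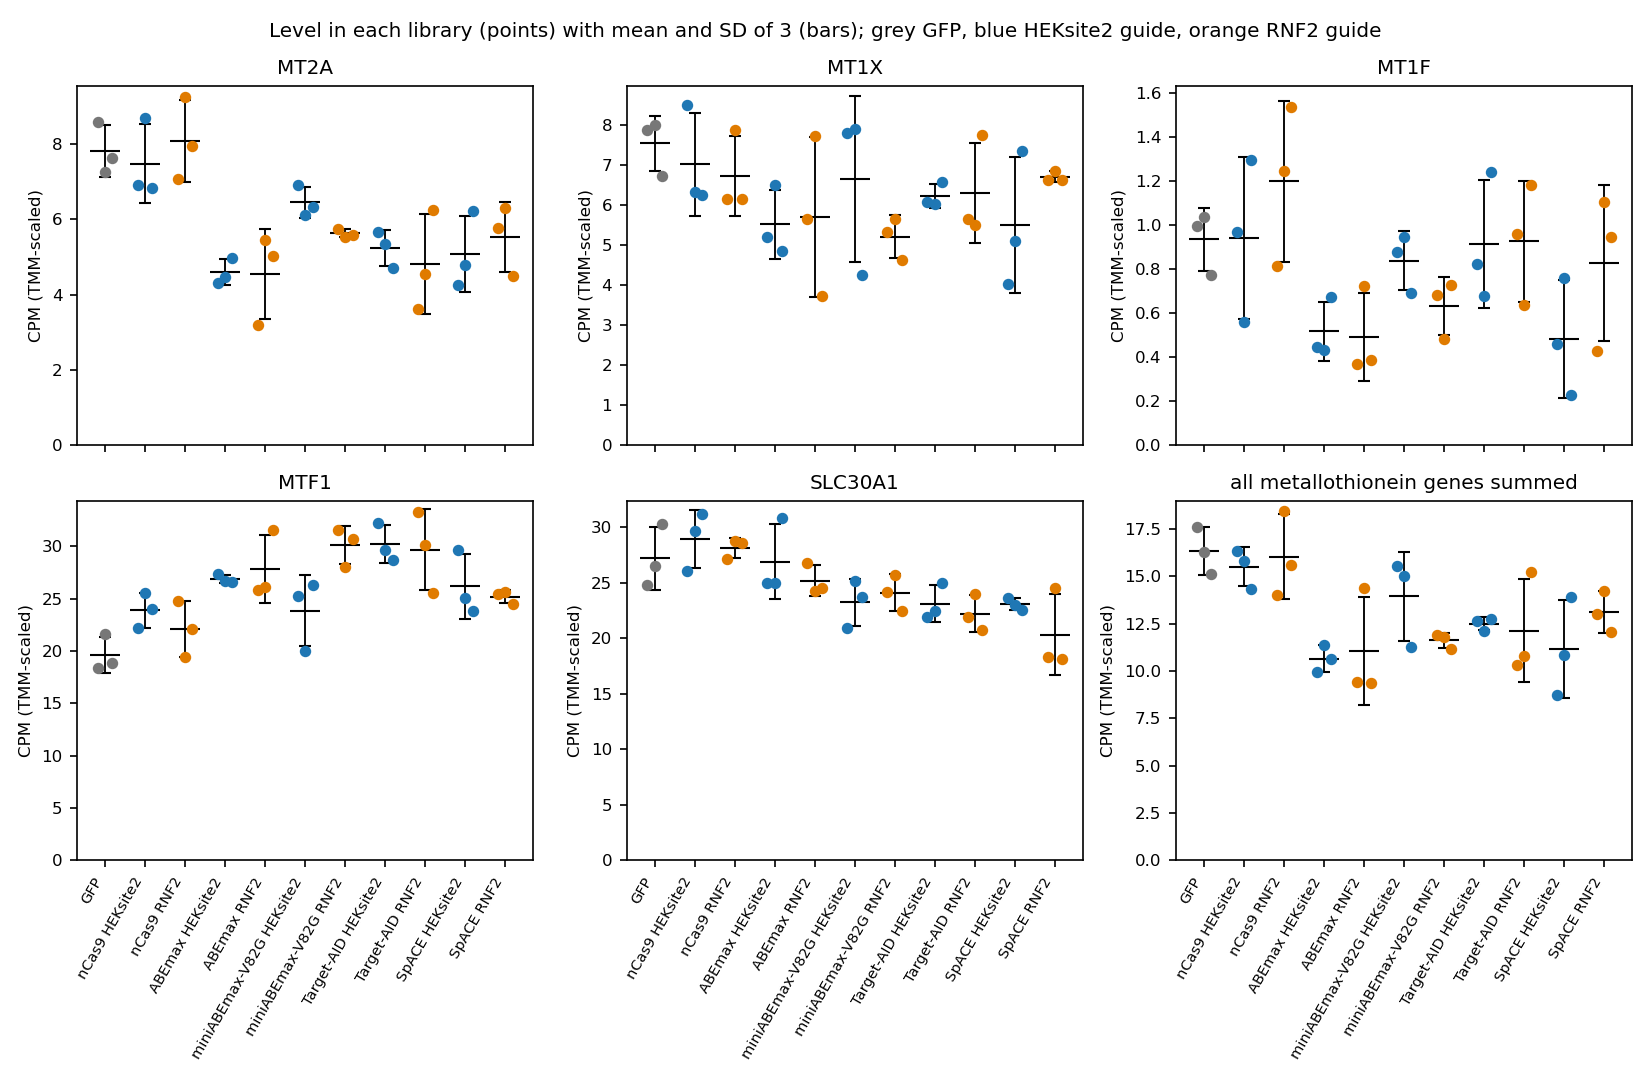
CPM (TMM-scaled) of the tested members and of the summed metallothioneins in each of the 33 libraries, by group, with points for libraries and lines for the group mean and SD (grey GFP, blue HEKsite2, orange RNF2). All 9 control libraries of MT2A lie at or above 6.82 CPM, and 1 of the 24 editor libraries, at 6.91 CPM, reaches that range.

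The main question was how each editor differed from nCas9 with the same guide. In cells with an editor, MT2A was lower in 7 of 8 comparisons and SLC30A1 in 5 of 8, while MTF1, the activator of both, was higher in 4 of 8. No call was made for MT1X or MT1F. Together 16 of 40 tests of members were called, 4 higher and 12 lower, against 20.2% of all tests in these comparisons. Without nCas9 HEKsite2 replicate 2 the count was 10. The members were chosen with earlier results of these data known, so setting their count against the background is a description only. The 4 editors share the same 3 nCas9 libraries within a guide, so their results are not independent of one another.

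With the HEKsite2 guide, 1 of 5 members was lower in ABEmax (15.9% of all genes called, 8.31% as higher and 7.55% as lower) and 1 was lower in miniABEmax-V82G (10.3% called, 5.02% higher and 5.32% lower). In Target-AID 1 member was higher and 2 were lower (40.6% called, 21.5% higher and 19.1% lower), and in SpACE 2 were lower (21% called, 10.7% higher and 10.2% lower). With the RNF2 guide, 1 member was higher and 1 lower in ABEmax (11.2% called, 6.51% higher and 4.66% lower), as in miniABEmax-V82G (12.6% called, 6.88% higher and 5.72% lower). Target-AID again had 1 higher and 2 lower (35.2% called, 19.4% higher and 15.8% lower), and SpACE had 2 lower (14.7% called, 8.03% higher and 6.68% lower). The median log2 difference over the 5 tested members ran from -0.47 in SpACE with RNF2 to -0.18 in Target-AID with HEKsite2, while the median over all genes stayed between -0.01 and 0.00.

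**Figure D3:**
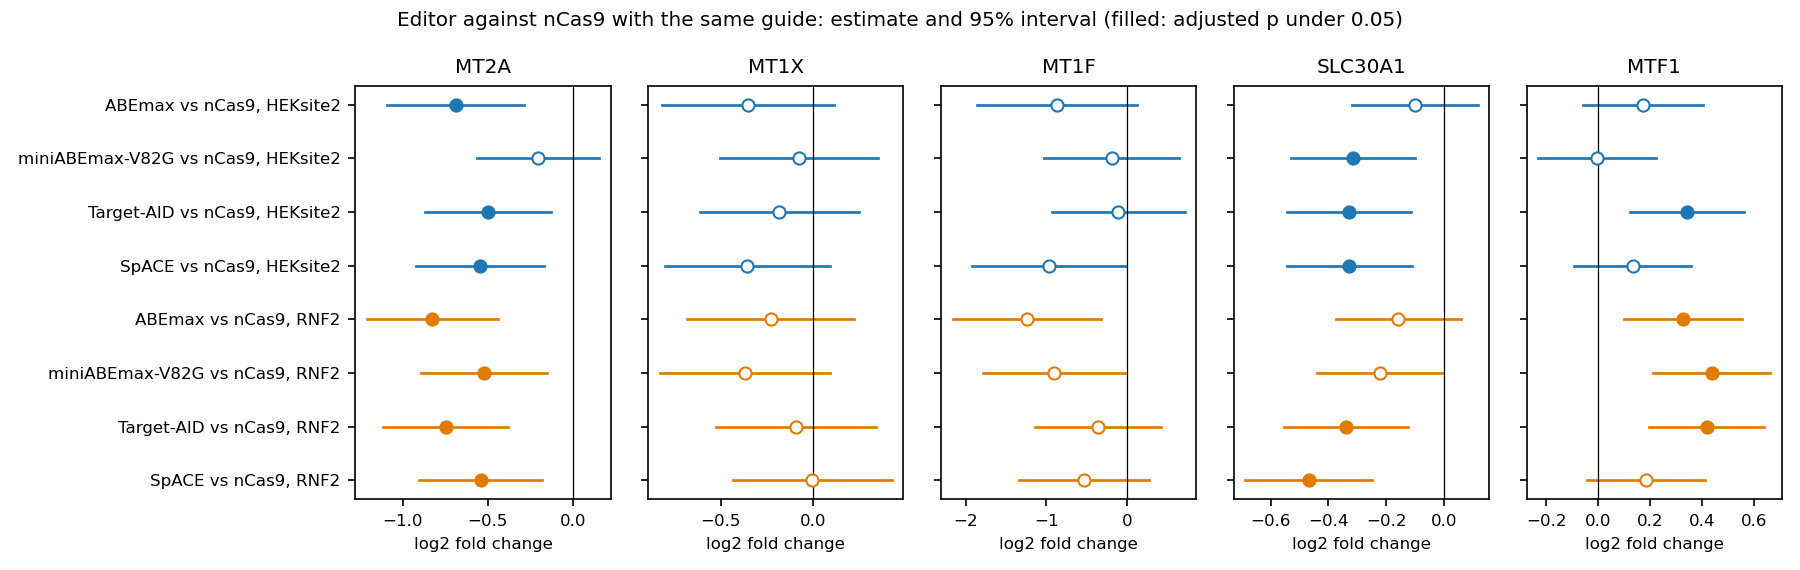
Log2 fold change of each tested member in each editor against nCas9 with the same guide, with 95% intervals as lines and filled points for called differences; blue is the HEKsite2 guide and orange RNF2. The MT2A and SLC30A1 estimates are below 0 in all 8 comparisons, and those of MTF1 above 0 in 7 of 8.

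MT2A, the most widely expressed human metallothionein, was measured at 8.57, 7.24 and 7.61 CPM in the 3 GFP libraries. In nCas9 it had 6.91, 8.69 and 6.82 CPM with HEKsite2 and 7.08, 9.23 and 7.94 CPM with RNF2. The 3 control groups overlapped one another. The ABEmax groups had the lowest means, with libraries at 4.32, 4.47 and 4.98 CPM with HEKsite2 and 3.19, 5.43 and 5.01 CPM with RNF2. With miniABEmax-V82G the values were 6.91, 6.10 and 6.33 CPM with HEKsite2 and 5.74, 5.54 and 5.59 CPM with RNF2. The HEKsite2 group of this editor was the one that reached into the nCas9 range. Target-AID libraries had 5.65, 5.33 and 4.71 CPM with HEKsite2 and 3.63, 4.55 and 6.23 CPM with RNF2. SpACE libraries had 4.26, 4.77 and 6.21 CPM with HEKsite2 and 5.76, 6.30 and 4.50 CPM with RNF2. Every editor group other than miniABEmax-V82G with HEKsite2 lay wholly below its nCas9 group. How many of all genes show such a separation was not computed, so how unusual it is cannot be told. In bulk RNA, fewer cells expressing the gene and less RNA per cell cannot be told apart. These values rest on 26 to 86 counts a library.

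The log2 fold change of MT2A against nCas9 with HEKsite2 was -0.69 ± 0.194 (SE, n = 3 against 3, adjusted p = 0.0116 in edgeR) in ABEmax, a level 0.62 of that in nCas9. It was -0.50 ± 0.178 (adjusted p = 0.0233) in Target-AID and -0.55 ± 0.181 (adjusted p = 0.0265) in SpACE. In miniABEmax-V82G the estimate was -0.20 ± 0.173 (adjusted p = 0.503, 95% interval -0.56 to 0.15). These 3 HEKsite2 calls rest on 1 control library: without nCas9 HEKsite2 replicate 2, the highest of its group, ABEmax was at -0.57 (adjusted p = 0.0743), Target-AID at -0.38 (0.135) and SpACE at -0.43 (0.143). Target-AID also lost its call without its own replicate 3 (0.0765), and SpACE without its own replicate 1 (0.130) or 2 (0.0897).

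With the RNF2 guide MT2A was lower in all 4 editors. ABEmax had the largest difference, -0.83 ± 0.185 (adjusted p = 0.00242), a level 0.56 of that in nCas9, and Target-AID followed at -0.75 ± 0.178 (adjusted p = 0.000983). Both of these calls held when any 1 of the 6 libraries was left out. The fold change was -0.52 ± 0.178 (adjusted p = 0.0465) in miniABEmax-V82G and -0.54 ± 0.174 (adjusted p = 0.0294) in SpACE. The miniABEmax-V82G call was lost without nCas9 RNF2 replicate 2 (0.225) or 3 (0.0801), without its own replicate 1 (0.101), 2 (0.125) or 3 (0.108), with no filter on low counts (0.0519), and in DESeq2 (0.0749). SpACE lost its call without nCas9 RNF2 replicate 2 (0.153) or 3 (0.0661), without its own replicate 1 (0.0600) or 3 (0.154), and in DESeq2 (0.0584).

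MT1X, a second metallothionein of the cluster, had 7.87, 7.99 and 6.73 CPM in GFP, 8.49, 6.31 and 6.23 CPM in nCas9 with HEKsite2 and 6.15, 7.86 and 6.15 CPM in nCas9 with RNF2. In ABEmax it had 5.21, 6.49 and 4.84 CPM with HEKsite2 and 5.64, 7.73 and 3.73 CPM with RNF2, where the libraries spread widely. miniABEmax-V82G had 7.79, 7.89 and 4.26 CPM with HEKsite2 and 5.33, 5.66 and 4.61 CPM with RNF2, the one group wholly below its nCas9 libraries. In Target-AID the values were 6.07, 6.01 and 6.57 CPM with HEKsite2 and 5.65, 5.50 and 7.74 CPM with RNF2. In SpACE they were 4.03, 5.10 and 7.34 CPM with HEKsite2 and 6.61, 6.85 and 6.63 CPM with RNF2. The editor libraries mostly overlapped the controls. MT1X was called in 0 of 8 comparisons with nCas9 in edgeR, with 0 at an unadjusted p under 0.05 and 0 called by DESeq2. Its estimates ran from -0.37 to -0.00. With RNF2, the 95% interval of MT1X was -0.68 to 0.23 in ABEmax, where MT2A was at -0.83, and -0.53 to 0.34 in Target-AID, where MT2A was at -0.75. In SpACE with RNF2 it was -0.44 to 0.43, and MT2A was at -0.54. In these 3 comparisons the MT2A estimate lay below the MT1X interval, and in the other 5 within it. The difference between the genes was not tested.

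MT1F was near the lower limit of the measurement, with 2 to 12 counts a library and 227 in all. The counts were 10, 11 and 7 in GFP, 8, 4 and 11 in nCas9 with HEKsite2 and 7, 10 and 12 in nCas9 with RNF2. ABEmax had 3, 3 and 5 counts with HEKsite2 and 3, 6 and 3 with RNF2. The other editor libraries had 2 to 11 counts. All 8 estimates against nCas9 were below 0, from -1.24 in ABEmax with RNF2 (SE 0.445, adjusted p = 0.0642) to -0.11, and 0 were called in edgeR. There were 3 with an unadjusted p under 0.05, and DESeq2 called 0 and gave no adjusted p in 6. Without nCas9 RNF2 replicate 1, ABEmax with RNF2 passed in edgeR, at -1.46 (adjusted p = 0.0461).

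Because related metallothioneins can take each other's reads, the counts of the 16 metallothionein rows of the table were also summed. The sum does not include AC026461.1, the leading sharer of MT1X sequence, and cannot restore any reads dropped for matching several genes. The mean of this sum was highest in the controls, at 16.3 CPM in GFP, 16 in nCas9 with RNF2 and 15.5 in nCas9 with HEKsite2. Editor groups ranged from 14 in miniABEmax-V82G with HEKsite2 to 10.7 in ABEmax with HEKsite2. The sum was not tested, and MT2A and MT1X make up most of it. Of the list of 15 other metallothionein genes and pseudogenes, 10 had a row and 0 passed the filter, with 13 counts of MT4, 9 of MT1HL1 and 0 or 1 of the others.

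MTF1, the transcription factor that senses zinc, was lowest in GFP, at 18.4, 21.6 and 18.9 CPM. With nCas9 it had 22.2, 25.5 and 24.0 CPM with HEKsite2 and 24.8, 19.5 and 22.2 CPM with RNF2. Target-AID was among the highest groups, with 32.3, 29.7 and 28.8 CPM with HEKsite2 and 33.3, 30.2 and 25.6 CPM with RNF2. All 6 of these libraries lay above the nCas9 libraries of their guide. So did the libraries of ABEmax with both guides and of miniABEmax-V82G with RNF2, and the share of all genes separated like this was not computed. ABEmax had 27.4, 26.7 and 26.6 CPM with HEKsite2 and 25.9, 26.1 and 31.6 CPM with RNF2. In miniABEmax-V82G the values were 25.2, 20.0 and 26.3 CPM with HEKsite2 and 31.6, 28.1 and 30.7 CPM with RNF2, so its guides did not overlap. SpACE had 29.7, 25.1 and 23.8 CPM with HEKsite2 and 25.5, 25.6 and 24.5 CPM with RNF2. Its libraries overlapped nCas9 with both guides.

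Against nCas9, MTF1 rose in Target-AID by 0.34 ± 0.106 on the log2 scale (adjusted p = 0.00829 in edgeR) with HEKsite2 and by 0.42 ± 0.107 (adjusted p = 0.00199) with RNF2. It rose by 0.44 ± 0.109 (adjusted p = 0.00585) in miniABEmax-V82G with RNF2, while its estimate in the same editor with HEKsite2 was -0.00 (95% interval -0.23 to 0.22). In ABEmax it was 0.33 ± 0.110 higher with RNF2 (adjusted p = 0.0466), and the HEKsite2 estimate, 0.17, was not called. The SpACE estimates were 0.13 and 0.19 and were not called. The Target-AID call with RNF2 held when any 1 of the 6 libraries was left out. Target-AID with HEKsite2 lost its call without nCas9 HEKsite2 replicate 1 (0.29, adjusted p = 0.0526), and miniABEmax-V82G with RNF2 without nCas9 RNF2 replicate 2 (0.35, adjusted p = 0.0673). The ABEmax call was lost without nCas9 RNF2 replicate 2 (0.256) or 3 (0.0929), without its own replicate 2 (0.0517) or 3 (0.261), and in DESeq2 (0.0560).

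SLC30A1, the exporter whose printed RefSeq window holds a single match to the metal response core, had 24.8, 26.5 and 30.3 CPM in GFP. In nCas9 it had 26.1, 29.7 and 31.2 CPM with HEKsite2 and 27.1, 28.8 and 28.6 CPM with RNF2. SpACE with RNF2 was the lowest group, at 18.3, 24.5 and 18.1 CPM. With HEKsite2 SpACE had 23.7, 23.0 and 22.6 CPM. Target-AID had 21.9, 22.5 and 25.0 CPM with HEKsite2 and 22, 24 and 20.7 CPM with RNF2. Every editor group except ABEmax with HEKsite2 lay wholly below the nCas9 libraries of its guide. The share of all genes separated in this way was not computed. In miniABEmax-V82G the values were 20.9, 25.2 and 23.7 CPM with HEKsite2 and 24.2, 25.8 and 22.5 CPM with RNF2. ABEmax stood nearest to nCas9, with 25.0, 25.0 and 30.8 CPM with HEKsite2 and 26.8, 24.3 and 24.5 CPM with RNF2.

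The fall of SLC30A1 was largest in SpACE with RNF2, at -0.47 ± 0.105 (adjusted p = 0.00169 in edgeR), or 0.72 of the nCas9 level. Target-AID with RNF2 was at -0.34 ± 0.103 (adjusted p = 0.00916), and both of these calls held when any 1 of the 6 libraries was left out. With HEKsite2 the fold changes were -0.32 ± 0.103 (adjusted p = 0.0410) in miniABEmax-V82G, -0.33 ± 0.103 (adjusted p = 0.00938) in Target-AID and -0.33 ± 0.103 (adjusted p = 0.0200) in SpACE. The 2 ABEmax estimates, -0.10 and -0.16, and that of miniABEmax-V82G with RNF2, -0.22 (adjusted p = 0.164), were not called. Target-AID with HEKsite2 lost its call without nCas9 HEKsite2 replicate 3 (-0.27, adjusted p = 0.0644). SpACE with HEKsite2 lost it without nCas9 HEKsite2 replicate 2 (0.0645) or 3 (0.106), or its own replicate 2 (0.0539) or 3 (0.0611). The miniABEmax-V82G call was lost without nCas9 HEKsite2 replicate 2 (0.125) or 3 (0.170), or its own replicate 1 (0.198) or 3 (0.0864).

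The levels of the members also varied together in part. Over the 11 group means the Pearson correlation of log2 CPM was 0.74 between MT2A and MT1X and 0.82 between MT1F and MT1X. Over the 33 libraries these values were lower, at 0.49 and 0.42. MT2A and MTF1 were inversely related, at -0.81 over the 11 groups and -0.65 over the 33 libraries. MT2A and SLC30A1, both targets of MTF1, were at 0.54 over the groups and 0.35 over the libraries. MT1X and SLC30A1 were at 0.21 and -0.01. These are descriptions over points that share a common scaling and 3 libraries each, and the MT1X values may include reads of related genes.

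GFP served as the second control. Its columns give the guide as None, so it differs from the other groups in construct and guide at once. In comparisons of the 10 other groups with GFP, 19 of 50 tests of members were called, 9 higher and 10 lower, against 43% of all tests, so the share of members called was near the background. These comparisons share the 3 GFP libraries. The nCas9 groups differed from GFP in 38.4% of all genes with HEKsite2, where 1 member was called, and in 41.5% with RNF2, where 0 were called in edgeR and 0 at an unadjusted p under 0.05. With HEKsite2, 2 members were called in ABEmax (46.8% of all genes), 1 in miniABEmax-V82G (39.8%), 2 in Target-AID (46.4%) and 2 in SpACE (36.6%). With RNF2, 2 were called in ABEmax (49.6%) and 3 each in miniABEmax-V82G (47%), Target-AID (46.2%) and SpACE (37.9%).

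Against this second control MT2A was lower in 7 of 10 groups. The called log2 fold changes ran from -0.47 in miniABEmax-V82G with RNF2 to -0.78 in ABEmax with RNF2. nCas9 itself was at -0.07 (95% interval -0.41 to 0.27) with HEKsite2 and 0.05 (-0.29 to 0.38) with RNF2, and miniABEmax-V82G with HEKsite2 was at -0.28 (adjusted p = 0.186). The miniABEmax-V82G call with RNF2 was lost without GFP replicate 1 (0.0953), without its own replicate 2 (0.0713) or 3 (0.0583), and in DESeq2 (0.0502). The SpACE call with RNF2 was lost without GFP replicate 1 (0.0869) or its own replicate 3 (0.121).

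MTF1 was higher than GFP in 9 of 10 groups, by 0.27 to 0.62, nCas9 with HEKsite2 included at 0.28 ± 0.111 (adjusted p = 0.0448 in edgeR). In nCas9 with RNF2 it was at 0.17 (95% interval -0.06 to 0.40). The nCas9 call was lost in DESeq2 (0.0620) and without GFP replicate 1 (0.145) or 3 (0.121) or nCas9 HEKsite2 replicate 2 (0.157) or 3 (0.0949). That of miniABEmax-V82G with HEKsite2, at 0.27, was lost in DESeq2 (0.0620) and without GFP replicate 1 (0.138) or 3 (0.116) or its own replicate 1 (0.140) or 3 (0.211).

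SLC30A1 was lower than GFP in SpACE with RNF2, by -0.42 ± 0.103 (adjusted p = 0.00137), and in Target-AID with RNF2, by -0.29 ± 0.101 (adjusted p = 0.0179). The second call was lost without GFP replicate 3 (0.121) or Target-AID RNF2 replicate 3 (0.0740). The remaining 8 groups were not called in the reported fit. Target-AID with HEKsite2, at -0.24 (adjusted p = 0.0526), passed with RLE scaling (0.0468), no filter (0.0308), the replicate block (0.0438), only the groups compared (0.0327), and without GFP replicate 1 (0.0277) or its own replicate 3 (0.0331). With HEKsite2, miniABEmax-V82G (0.0441) and SpACE (0.0372) passed without GFP replicate 1. MT1X was called in 1 group, miniABEmax-V82G with RNF2, at -0.54 ± 0.212 (adjusted p = 0.0344), and that call was lost without GFP replicate 1 (0.0829) or 2 (0.0963) or its own replicate 1 (0.0626), 2 (0.0523) or 3 (0.128). In other settings MT1X also passed against GFP in ABEmax with HEKsite2 (0.0299 with no filter, 0.0321 with only the groups compared), in SpACE with HEKsite2 (0.0311 with no filter, 0.0129 without its replicate 3) and in ABEmax with RNF2 (0.0157 without its replicate 2). MT1F was called in 0 of 10 in edgeR, with 1 unadjusted p under 0.05 and 0 called by DESeq2. It passed in SpACE with HEKsite2 without SpACE HEKsite2 replicate 2, at -1.42 (adjusted p = 0.0420 in edgeR).

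SpACE joins an adenine and a cytosine deaminase, so it was compared with miniABEmax-V82G and Target-AID with the same guide. Of the 20 tests of members 0 were called in edgeR, with 4 at an unadjusted p under 0.05 and 0 called by DESeq2, which gave no adjusted p in 6. The background over the 4 comparisons was 10.3% of all tests, and 0.739% and 18.5% of genes were called against miniABEmax-V82G and Target-AID with HEKsite2, and 5.85% and 15.9% with RNF2. For MT2A the 4 estimates ran from -0.34 to 0.21, with 95% intervals from -0.72 to 0.59, and for SLC30A1 from -0.25 to 0.00, with intervals from -0.47 to 0.22. The MTF1 estimates ran from -0.25 to 0.14, and 3 of them had an unadjusted p under 0.05. MTF1 passed in 1 setting that fitted only the groups compared, at -0.25 (adjusted p = 0.0454) against miniABEmax-V82G with RNF2. It also passed against Target-AID with RNF2 without Target-AID RNF2 replicate 3, at -0.33 (adjusted p = 0.0201). Without SpACE RNF2 replicate 2, SLC30A1 passed against miniABEmax-V82G with RNF2, at -0.40 (adjusted p = 0.0376).

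The RNF2 and HEKsite2 guides were compared within each construct. Of 25 tests of members 1 was called, against 2.86% of all tests. It was MTF1 in miniABEmax-V82G, higher with RNF2 by 0.34 ± 0.106 (adjusted p = 0.0352), in a comparison with 9.94% of genes called. The call was lost without miniABEmax-V82G HEKsite2 replicate 2 (0.265) or RNF2 replicate 1 (0.130) or 3 (0.103). In the other constructs 0 members were called in edgeR, with 0 unadjusted p under 0.05 and 0 called by DESeq2, against 2.07% of genes in nCas9, 2.26% in ABEmax, 0% in Target-AID and 0.0411% in SpACE. Whether an editor's difference from nCas9 changed with the guide was tested as an interaction, and 0 of 20 tests of members passed in edgeR. There 1 unadjusted p was under 0.05, for MTF1 in miniABEmax-V82G (0.44 ± 0.154, adjusted p = 0.729), and DESeq2 called 0 and gave no adjusted p in 3. The background was 0% in ABEmax, 0.0137% in miniABEmax-V82G, 0.164% in Target-AID and 0.0274% in SpACE. The miniABEmax-V82G difference in MT2A, called with RNF2 and not with HEKsite2, is thus not shown to depend on the guide.

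Zinc is also moved by the rest of the SLC30 family, many of whose members lower cytosolic zinc, and by the SLC39 family of importers, which raises it. Of the other 9 SLC30 genes 8 were tested. Each comparison of an editor with nCas9 called 0 or 1 of them, against 10.3% to 40.6% of all genes. SLC30A3, a vesicular zinc transporter best known in neurons, was lower in Target-AID with HEKsite2 (-0.74 ± 0.249, adjusted p = 0.0162) and in SpACE with HEKsite2 (-0.70 ± 0.250, adjusted p = 0.0423). It is a low gene, with its lowest mean, 1.33 CPM, in GFP, and 2.98 and 3.20 CPM in nCas9 with HEKsite2 and RNF2. The Target-AID and SpACE means with HEKsite2, 1.79 and 1.83 CPM, lay above that of GFP, where the log2 fold changes were 0.40 ± 0.281 and 0.44 ± 0.282 and were not called, so the sign of the estimate depends on the control. SLC30A9 was lower in ABEmax with HEKsite2, by -0.18, and SLC30A4, SLC30A5, SLC30A6, SLC30A7, SLC30A8 and SLC30A10 were not called in any of the 8 comparisons.

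Of 14 SLC39 genes 11 were tested. With HEKsite2, 3 of the 11 were lower than in nCas9 in ABEmax (7.55% of all genes lower), 3 in miniABEmax-V82G (5.32%), 4 in Target-AID (19.1%) and 4 in SpACE (10.2%). With RNF2, 1 was lower in ABEmax (4.66%), 3 in miniABEmax-V82G (5.72%), 4 in Target-AID (15.8%) and 3 in SpACE (6.68%), and 1 was higher in 1 comparison (SLC39A14 in Target-AID with HEKsite2, by 0.18). SLC39A1, a plasma membrane zinc importer, was lower in all 8 comparisons, by -0.24 to -0.52. SLC39A7, which releases zinc from the endoplasmic reticulum and Golgi, and SLC39A9 were each lower in 6 of 8, with the largest differences -0.60 in Target-AID with HEKsite2 and -0.40 in Target-AID with RNF2. SLC39A6 and SLC39A8 were lower in 2 each and SLC39A10 in 1. The list's median ran from -0.14 to -0.03, against -0.01 to 0.00 for all genes.

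The choice of control matters for these importers. SLC39A1 had 191 ± 6.36 CPM (SD, n = 3) in nCas9 with HEKsite2 and 133 ± 5.92 in Target-AID with HEKsite2, but 154 ± 8.20 in GFP. Both nCas9 groups were higher than GFP, by 0.31 ± 0.065 with HEKsite2 and 0.26 ± 0.065 with RNF2, and against GFP SLC39A1 was lower in 2 of the 8 editor groups, Target-AID with HEKsite2 (-0.22) and miniABEmax-V82G with RNF2 (-0.17). SLC39A7 and SLC39A9 were likewise higher in both nCas9 groups than in GFP, by 0.29 to 0.40. For MT2A the nCas9 estimates against GFP were -0.07 with HEKsite2 and 0.05 with RNF2, and they were not called.

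**Figure D4:**
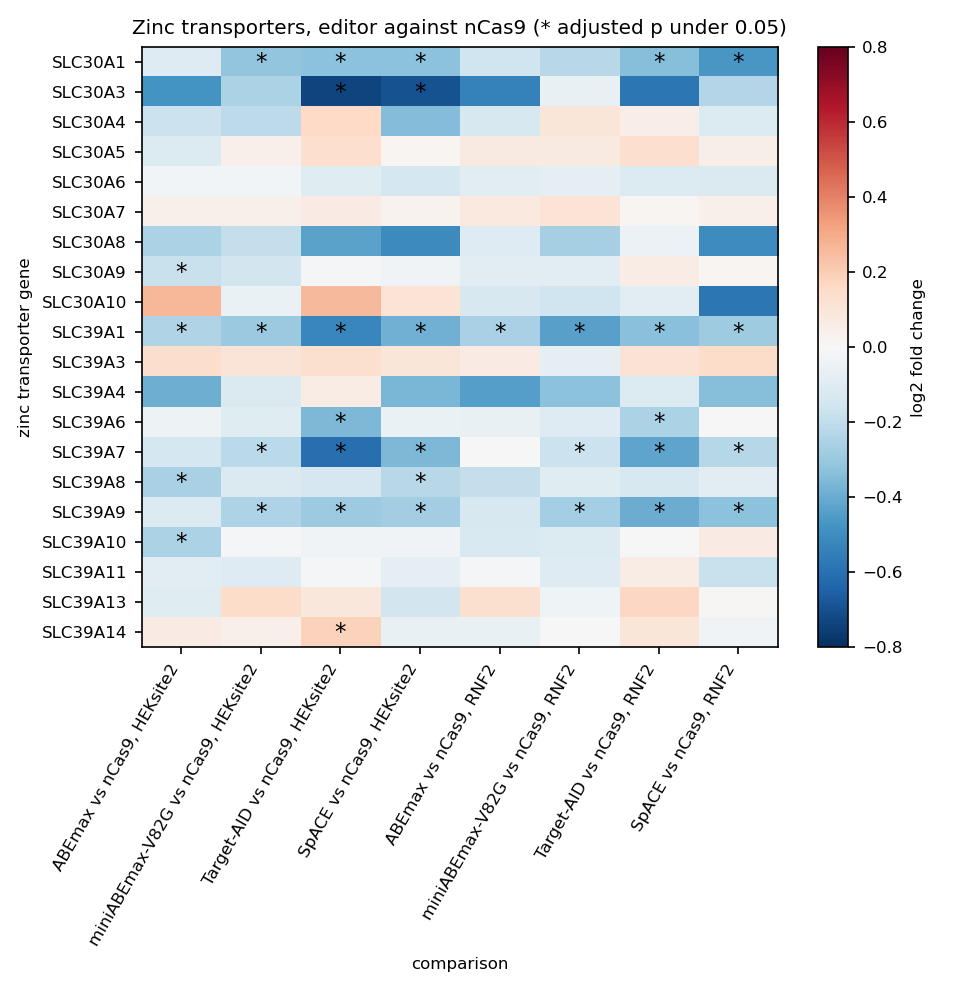
Log2 fold change against nCas9 with the same guide for SLC30A1 and the other tested SLC30 and SLC39 genes, as colour from blue (lower) to red (higher), with stars for called differences. SLC39A1 is starred and below 0 in all 8 columns, from -0.24 to -0.52.

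Stress genes are given because metallothioneins also respond to stress. Of 12 heat shock genes tested, 10 or 11 were higher in each editor than in nCas9, with list medians of 0.91 to 1.52. DNAJB1, an HSP40 co-chaperone, had 197 ± 7.72 CPM (SD, n = 3) in nCas9 with HEKsite2 and 832 ± 69.7 in SpACE with HEKsite2, and GFP stood between them at 293 ± 11.4. Of 10 genes regulated by NRF2, the oxidative stress factor, 3 or 4 were higher in each editor and 0 to 3 lower. In the same comparisons 5.02% to 21.5% of all genes were higher and 4.66% to 19.1% lower. HMOX1, heme oxygenase, was higher in 8 of 8, by 0.34 to 1.16, and so was SLC7A11, the cystine transporter. The part of either stress list in the levels of the members was not tested.

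The genes whose group means followed a member most closely were sought among 12709 genes above a floor of 1 in mean log2 CPM, and among 12708 for SLC30A1. For MT2A they were MRPL20 (Pearson r = 0.96), FAM127A, SLITRK5, SNORD15A and PGAP2, for MT1X TMEM261 (0.95), VPS25, HIST1H3J, C8orf82 and SDHAF3, and for SLC30A1 CHRDL1 (0.95), ARID3A, JMJD8, ERI2 and DLX4. These correlations are over 11 groups and were the highest found in that search, so they describe likeness of pattern only.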

How the data were processed

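The deposited table holds raw read counts per gene symbol, made by the authors, for 26475 genes and 33 libraries. Per the labels' protocols, total RNA went into a stranded total RNA library kit. The submitters' processing notes name STAR, GATK 3.8.1, Picard 2.7 and the GRCh38 build without roles, and the counting tool, strand setting and gene annotation were not stated there. Columns were matched to samples by construct, guide and replicate number, with 0 left over. UGI appears in the names of the SpACE columns, which the labels do not mention.

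Counts were filtered with edgeR's filterByExpr, which left 14613 genes, and scaled by TMM. All 33 libraries were fitted together (22 residual degrees of freedom) and compared with the two-sided quasi-likelihood F-test of edgeR 4.0.16 (R 4.3.3, limma 3.58.1), adjusted by Benjamini-Hochberg within each comparison. Standard errors are the fold change over the square root of F, and 95% intervals use 22 degrees of freedom. Totals per library, 6790209 to 11200406 counts, set the precision: counting error is large for genes with few counts, such as MT1F. Alternatives were RLE scaling, no filter, a replicate block, only the groups compared, DESeq2 1.42.0 and each library left out in turn.

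All 8 members are named. Of each other list at most 5 genes are named, by the number of comparisons with nCas9 that called them, together with all transporters where the count was small. Likeness to MT2A, MT1X and SLC30A1 is the Pearson correlation of group means. Members and gene lists were chosen with earlier results of these data known. Positions and exon lengths are from GENCODE 29, promoters from RefSeq. Motifs were searched on both strands in 250 bases, and shared stretches are of 50 bases. Python 3.11.15, pandas 2.3.3 and matplotlib 3.10.9 were used.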

Additional observations from a re-analysis of the deposited data

How the results depend on the processing

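Counts of members called in comparisons with nCas9 were 16 in the reported fit, 16 with RLE scaling, 16 with the replicate block, 16 with only the groups compared, 15 with no filter and 13 in DESeq2. Leaving out 1 library at a time gave 10 to 17, with 10 without nCas9 HEKsite2 replicate 2, 17 without nCas9 RNF2 replicate 1 and 12 to 16 without any other. Against GFP the count was 19, and it was 20 with RLE scaling, 20 with the replicate block, 21 with only the groups compared, 22 with no filter, 16 in DESeq2 and 16 to 21 with a library left out. SpACE against miniABEmax-V82G and Target-AID gave 0, but 1 with only the groups compared and 0 to 1 with a library left out. The comparison of guides gave 1, and 0 to 1 with a library left out. The count over 11 groups was 3 and the interaction count 0 in every setting tried.

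Replicate numbers do not mark shared cultures in the labels, and in 0 of 27 comparisons were all 3 correlations between same-numbered libraries over 0.1 (lowest -0.13, highest 0.17), so the numbers were not taken to pair libraries. With the replicate block 1 of 155 tests of a member changed its call, SLC30A1 in Target-AID with HEKsite2 against GFP (-0.23, adjusted p = 0.0438 in edgeR). Of the same 155 tests DESeq2 left 127 as they were, lost 6 calls and gave no adjusted p in the rest. A library left out lost 53 calls and gained 10 over all such fits. No called value changed sign in any setting. RLE scaling moved the median of all genes by at most 0.01 on the log2 scale. Depth limits MT1F, with 2 to 12 counts a library, and leaves MT1E, MT1G and MT1M without a test.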

Other observations

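Copper and iron, which metallothioneins and related pathways also handle, were examined in 12 genes, all tested. FTL, the ferritin light chain that stores iron, was lower than in nCas9 in 7 of 8 comparisons, with log2 fold changes of -0.67 to -0.21. ATOX1, the copper chaperone, was lower in 5, and SLC31A1, the copper importer, in 3. TFRC, the transferrin receptor, was higher in both Target-AID groups and lower in 3 others, with estimates from -0.27 to 0.48. FTL was also higher in nCas9 with HEKsite2 than in GFP, by 0.25 ± 0.064, and against GFP it was lower in both Target-AID groups, at -0.42 and -0.40. The 12 genes together had 0 to 3 higher and 1 to 4 lower in each comparison of an editor with nCas9, with medians of -0.17 to -0.07. Of all genes, 5.02% to 21.5% were higher there and 4.66% to 19.1% lower.

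NR3C1, the glucocorticoid receptor gene, and targets of the receptor were examined because the receptor also regulates metallothioneins. Of 8 genes tested, 1 or 2 were higher and 0 or 1 lower in each editor than in nCas9. The background was 5.02% to 21.5% of all genes higher and 4.66% to 19.1% lower. DUSP1, a phosphatase of MAP kinases, was higher in 8 of 8, by 0.85 to 2.59. PER1, a clock gene, was lower in 5. TSC22D3 and NR3C1 were each higher in 2, and KLF9 was lower in 2. The rest of the list was not called in any of the 8 comparisons.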
